A study of Mus musculus with 7 samples.

Results

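In wild-type J1 cells 11.66 Mb of autosomal sequence was called 5fC-enriched in both replicates and in no library of the siRNA-treated cultures. This wild-type-only sequence lay in 15076 pieces of at least 200 bp, and it made up 3.72% of the autosomal wild-type consensus, the sequence enriched in both wild-type replicates, which held 160478 regions over 313.6 Mb. A piece was taken as the base-pair intersection of the enriched domains of both wild-type libraries after removal of every base that was enriched in any of the 4 siRNA libraries. The pieces were therefore selected on the calls of all 6 pulldown libraries, and any contrast of wild type with siRNA libraries over them is a description without a test.

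5fC was captured with a biotin-bearing probe that reacts with its aldehyde, and the captured DNA was sequenced. The TDG KD libraries, bham480 and ear003, came from J1 mouse ES cells (strain 129S4/SvJae) transfected with siRNA against Tdg, and the siRNA control libraries, bham479 and ear001, from J1 cells transfected with non-targeting siRNA. How far TDG fell in these cultures was not analysed here. Both kinds of siRNA culture were kept without feeders through 3 rounds of transfection. The wild-type libraries, bham359_362 and bham470, came from untransfected J1 cells grown on irradiated embryonic fibroblast feeders. Each condition had 2 biological replicates, and 1 genomic input library, labelled wild type, served as the background of every pulldown. The siRNA pulldowns thus had no input of their own condition, and the part of this in the calls was not tested. Transfection and the feeder layer changed together between wild type and the siRNA cultures and cannot be told apart here. Both wild-type libraries also carry the name prefix BHAM, while each siRNA condition has 1 library of the prefix BHAM and 1 of EAR.

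In mammals the TET dioxygenases oxidize 5mC in steps to 5hmC, 5fC and 5caC, and TDG, a DNA glycosylase, cuts 5fC and 5caC out of DNA so that base excision repair can put back an unmodified cytosine. Most of these cytosines stand before a guanine, in CpG dinucleotides. CpGs are sparse over most of the mouse genome and dense in CpG islands (CGIs), which often overlie gene starts. ES cells express Tet1 and Tet2 at a high level.

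The sequence of the widest pieces is shown first, because most of it occurs many times in the genome. For the 5 widest pieces, all outside UTRs, the 200 bp window with the most CpGs is given from the plus strand of mm9, 5′ to 3′, with every CpG in capitals. The Cdk6 piece lies in an intron of the gene for a cell cycle kinase, and the Pamr1 piece in the gene for a secreted protein with a peptidase domain.
Widest piece, intergenic, chr4:101543637-101543836: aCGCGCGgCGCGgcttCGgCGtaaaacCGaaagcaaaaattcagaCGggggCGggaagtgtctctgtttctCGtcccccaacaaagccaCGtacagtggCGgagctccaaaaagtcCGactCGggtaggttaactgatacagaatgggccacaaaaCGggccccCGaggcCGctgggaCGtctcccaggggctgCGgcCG
Piece of 9400 bp, intergenic, chr4:40606236-40606435: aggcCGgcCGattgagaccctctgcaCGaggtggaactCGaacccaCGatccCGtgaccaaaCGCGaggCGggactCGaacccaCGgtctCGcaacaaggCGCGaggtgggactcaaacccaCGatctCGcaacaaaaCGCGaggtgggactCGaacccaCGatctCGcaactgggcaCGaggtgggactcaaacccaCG
Piece in Cdk6, chr5:3436241-3436440: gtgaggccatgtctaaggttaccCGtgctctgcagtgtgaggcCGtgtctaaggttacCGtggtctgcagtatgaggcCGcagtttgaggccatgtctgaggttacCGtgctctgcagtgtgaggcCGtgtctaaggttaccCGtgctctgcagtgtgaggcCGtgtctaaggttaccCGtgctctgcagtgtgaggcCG
Piece in Pamr1, chr2:102449050-102449249: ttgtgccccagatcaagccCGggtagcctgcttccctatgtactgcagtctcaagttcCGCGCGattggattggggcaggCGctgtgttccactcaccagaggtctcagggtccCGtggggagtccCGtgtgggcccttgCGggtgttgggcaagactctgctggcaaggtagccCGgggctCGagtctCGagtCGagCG
Piece of 8500 bp, intergenic, chr4:40007903-40008102: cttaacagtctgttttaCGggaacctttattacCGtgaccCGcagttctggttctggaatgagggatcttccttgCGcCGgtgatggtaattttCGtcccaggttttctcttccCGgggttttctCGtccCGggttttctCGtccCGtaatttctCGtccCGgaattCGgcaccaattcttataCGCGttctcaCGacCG

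The same choice was made among the sequence enriched in all 6 pulldowns, for comparison.
Widest region of all 6 pulldowns, in Gm20388, chr8:122871676-122871875: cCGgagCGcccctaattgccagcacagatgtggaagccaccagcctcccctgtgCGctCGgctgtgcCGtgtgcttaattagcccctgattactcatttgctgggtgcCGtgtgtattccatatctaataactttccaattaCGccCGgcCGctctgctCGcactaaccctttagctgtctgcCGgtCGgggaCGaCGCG
Second widest, intergenic, chr17:27491381-27491580: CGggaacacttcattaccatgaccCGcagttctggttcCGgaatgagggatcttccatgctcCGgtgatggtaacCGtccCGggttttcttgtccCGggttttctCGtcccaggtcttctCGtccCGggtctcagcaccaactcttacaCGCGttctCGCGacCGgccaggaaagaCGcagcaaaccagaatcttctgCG
The last wild-type-only window and the last of these windows resemble each other. A local alignment matched them over 184 columns with 148 identical bases (80.4%), so related sequence stood on both sides of the rule.

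The pieces were short. Their median width was 600 bp, 90% were at most 1500 bp wide and the widest had 10000 bp. In all, 4011 pieces had at least 1000 bp. The calls of bham359_362 set most of the borders, since 9921 pieces (65.8%) were a whole enriched domain of that library and 186 (1.23%) a whole domain of bham470. The bham470 domain that held a piece had a median width of 10300 bp, and 8173 domains of bham470 held the 15076 pieces, up to 14 in a domain. Pieces in the same bham470 domain share its value and are not independent of each other. Of all pieces 12064 (80.0%) were consensus regions left whole by the rule, and 3200 (21.2%) ended where a domain enriched in a siRNA library began. The median distance to such a domain was 2300 bp, and 367 pieces had none within 50 kb. At the width limit, the 1978 pieces of 200 bp had a median value of 4.00 in bham359_362 and 0.52 in bham470, and the 2051 pieces of 100 bp that the limit left out had 4.00 and 0.518.

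The deposited score of a domain gives, per 100 bp bin, how many more reads the pulldown had than the input. It carries no correction for depth, so levels are also given as the percentile of the value among all autosomal bases of the library, and as excess, the value minus the library mean. Depth was 20.4 to 45.9 M uniquely placed reads in the pulldowns, the most in bham359_362 and the fewest in bham480. Averaged over the length of the pieces, the value was -0.306 in bham480 and -0.00886 in ear003 of TDG KD, 0.0308 in bham479 and -0.00116 in ear001 of the siRNA control, and 2.98 in bham359_362 and 0.586 in bham470 of wild type. The mean percentile was 48.6 and 56.8 in TDG KD, 52.9 and 47.9 in the siRNA control, and 88.8 and 86.7 in wild type. In the siRNA libraries the pieces thus stood on average near the middle of all autosomal sequence, which includes the enriched domains that the rule keeps out of the pieces. Domains called background had lower mean values than the pieces in each siRNA library. These were -0.353 in bham480, -0.115 in ear003, -0.0358 in bham479 and -0.0239 in ear001.

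**Figure D1:**
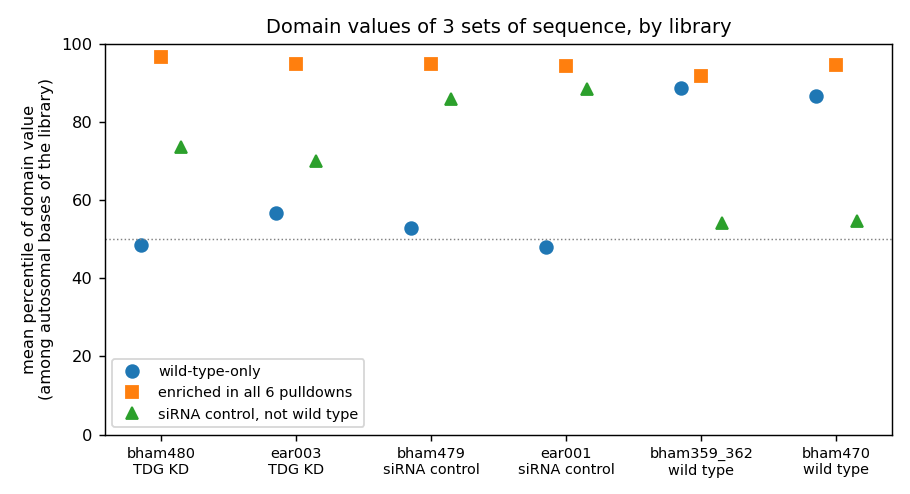
Mean percentile of the domain value among the autosomal bases of each library (y axis, 0 to 100) in the 6 pulldown libraries, for wild-type-only sequence (circles), sequence enriched in all 6 pulldowns (squares) and sequence enriched in both siRNA control libraries but in no wild-type library (triangles). Wild-type-only sequence lay between 47.9 and 56.8 in the 4 siRNA libraries and at 88.8 and 86.7 in wild type, which the choice of the sets fixes.

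The siRNA values rested on wide domains. The domain holding a piece had a median width of 52600 bp in bham480, 29800 bp in ear003, 48100 bp in bham479 and 130900 bp in ear001, against 800 bp in bham359_362. A siRNA value is therefore an average over far more sequence than the piece itself. In bham480 35.6% of the wild-type-only sequence was unconfident, a state that rseg gives where it cannot call, and 64.4% was background, whereas at least 98.9% was background in each of the other siRNA libraries. For all covered sequence the unconfident share of bham480 was 20.6%, and for the wild-type consensus it was 57.2%. In all, 9598 pieces (63.7%) were background over their whole length in all 4 siRNA libraries.

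TDG KD and siRNA control were treated alike by the rule, but it removed every base enriched in any of their 4 libraries, which holds the values of both below enrichment. Their difference is therefore given as a description, without a test. The excess was -0.0226 in bham480 and -0.101 in ear003 of TDG KD, and -0.0828 in bham479 and -0.0561 in ear001 of the siRNA control. It averaged -0.0616 ± 0.0551 in TDG KD and -0.0694 ± 0.0189 in the siRNA control (SD, n = 2 libraries each), and the difference of 0.00782 was smaller than the spread between replicates. Within the prefixes the difference was 0.0602 for BHAM and -0.0446 for EAR, so its sign depended on the pair. On the percentile scale TDG KD averaged 52.7 ± 5.8 and the siRNA control 50.4 ± 3.51 (SD, n = 2 libraries each).

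Across the pieces, the value of bham359_362 was unrelated in rank to that of bham470 (Spearman rho = -0.0079 over 15076 pieces, given as a description). Wider pieces had lower values in bham359_362 (rho = -0.47), a relation that bham470 did not show (rho = -0.0074). Every piece lies in 1 domain or more of each library, so these correlations carry the width of the domains as well. The rule also keeps only sequence enriched in both wild-type libraries, which narrows the range of their values. No such correlation is given for other sets, so a low rho cannot be called particular to the pieces.

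Wild-type-only sequence was richer in GC and CpG than the genome and poorer than the wild-type consensus and the sequence enriched in all 6 pulldowns. Its GC content was 47.8%, against 51.9% in the sequence enriched in all 6, 42.9% in the sequence enriched in both siRNA control libraries and no wild-type library (control-only sequence), and 41.9% in all covered autosomal sequence. It held 13.6 CpGs per kb, against 16.0, 9.06 and 8.5 in the same sets. The wild-type consensus, from which the pieces were cut, had a GC content of 50.4% and 15.1 CpGs per kb. In wild-type-only sequence the ratio of observed to expected CpGs was 0.237. This was close to the 0.238 of the sequence enriched in all 6 and above the 0.194 of covered sequence. A median piece had 7 CpGs, and 545 pieces had none. Chromosome 8 supplied 18576500 bp of the 85.66 Mb enriched in all 6 pulldowns and 17889800 bp of the 50.3 Mb of control-only sequence. It supplied only 3400 bp of the wild-type-only sequence. Neither comparison set is given without chromosome 8, so its part in these differences was not tested. The same holds for the comparisons of annotation and of repeated sequence below.

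At CGIs the wild-type-only sequence came near the sequence enriched in all 6 pulldowns, and at exons it did not. CGIs took 1.85% of the wild-type-only sequence, 3.28 times their share of covered sequence, against a fold of 3.73 in the sequence enriched in all 6, 0.345 in control-only sequence and 3.52 in the wild-type consensus. 5' UTRs had a fold of 2.91, against 3.53 in the sequence enriched in all 6. Coding exons stood at 2.10 against 3.98 and exons as a whole at 1.77 against 3.45. Promoters (1 kb upstream of the transcription start site, TSS) stood at 1.93 against 2.83 and 3' UTRs at 1.09 against 2.77. In the wild-type consensus the folds were 3.34 at coding exons, 2.99 at exons, 2.6 at promoters and 2.44 at 3' UTRs. Introns made up 45.7% and intergenic sequence 48.2% of the wild-type-only sequence, folds of 1.24 and 0.808. With wild_type replicate 1, bham359_362, left out, so that bham470 alone stood for wild type, the fold at CGIs was 1.22 and at exons 1.22, and without TDG_KD replicate 2, ear003, they were 5.74 and 2.36.

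**Figure D2:**
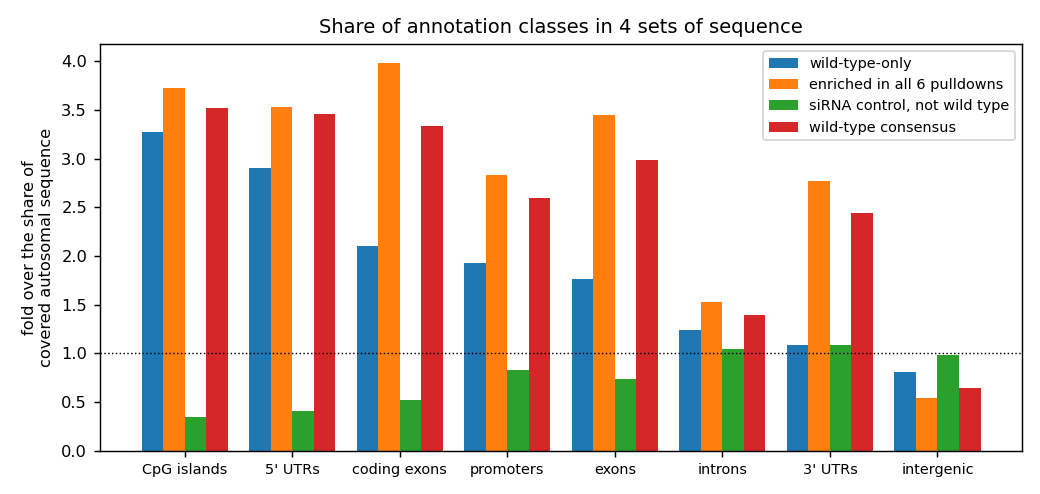
Fold of 8 annotation classes over their share of the covered autosomal sequence (y axis, linear from 0, dotted line at 1) in wild-type-only sequence, sequence enriched in all 6 pulldowns, sequence enriched in both siRNA control libraries but in no wild-type library, and the wild-type consensus. The wild-type-only bar stands at 3.28 for CpG islands and 1.09 for 3' UTRs, against 3.73 and 2.77 for sequence enriched in all 6.

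By piece, 421 of 15076 (2.79%) touched a CGI, 1947 (12.9%) touched an exon, 5752 (38.2%) lay in introns alone and 7373 (48.9%) outside gene bodies. The 233 pieces with at least 50% of their length in a CGI had a median GC content of 64% and 82.5 CpGs per kb. Their median percentile was 36.6 and 58.2 in TDG KD, 48.8 and 44.7 in the siRNA control, and 93.8 and 90.1 in wild type. For the 14655 pieces outside CGIs these medians were 58.6 and 62.5, 58.8 and 54.4, and 90.7 and 84.9 in the same order of libraries.

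Of 22431 autosomal CGIs, 321 (1.43%) had at least 50% of their length in wild-type-only pieces. By position, these were 244 of 11807 CGIs within 1 kb of a TSS, 29 of 3826 in gene bodies and 48 of 6798 between genes. Set against the CGIs with at least 50% of their length in the consensus, these were 3.75% at a TSS, 1.5% in gene bodies and 4.4% between genes. The 10 widest all lay at promoters. The CGI of Tle3, a corepressor of the Groucho family, was the widest with 3672 bp, and 75.5% of it was wild-type-only. The whole of the 1700 bp CGI of Rest, a repressor of neuronal genes, lay in a piece of 2500 bp. In this piece the value was -0.196 and 0.37 in TDG KD (bham480 and ear003), 0.247 and 0.111 in the siRNA control (bham479 and ear001), and 2.68 and 0.616 in wild type (bham359_362 and bham470). The siRNA values of Rest lay between the 75.3 and 77.1 percentile of their libraries, the highest of the 10 CGIs in each of these libraries.

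The CGI of Rbpj, the DNA-binding effector of Notch signaling, was 53.7% wild-type-only, with values of -0.493 and -0.151 in TDG KD, -0.235 and -0.11 in the siRNA control, and 2.80 and 1.01 in wild type. For the CGI of Gsk3b, a kinase that restrains Wnt signaling, 81.7% was wild-type-only, with values of -0.411 and -0.0162, -0.00587 and 0.019, and 3.05 and 0.435 in the same libraries. In both genes every siRNA value was below every wild-type value, which the choice of the pieces favours. The others were the CGIs of Pcbp1, an RNA-binding protein, of Hmx2, a homeobox factor, of the heat shock genes Hspa1a and Hspa1l, of the neighbours Enoph1 and Hnrpdl, which share it, of Ankrd17, and of Gphn, the scaffold of inhibitory synapses. Over the 10 CGIs the values ran from -0.493 to -0.196 in bham480, -0.228 to 0.37 in ear003, -0.235 to 0.247 in bham479 and -0.125 to 0.111 in ear001, and from 2.68 to 5.44 in bham359_362 and 0.435 to 2.00 in bham470. The highest bham359_362 value belonged to the Hspa1a and Hspa1l island and the highest bham470 value to Gphn.

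A piece lay within 1 kb of a TSS in 776 of 21410 autosomal protein-coding genes (3.62%). Genes with a CGI within 1 kb of a TSS had one in 555 of 12203 cases (4.55%) and genes without in 221 of 9207 (2.40%). Set against the genes with a consensus region there, these were 7.34% of 7560 and 6.31% of 3505. The first base of a gene lay in wild-type-only sequence in 2.02% of the genes with a CGI and in 0.847% of those without.

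**Figure D3:**
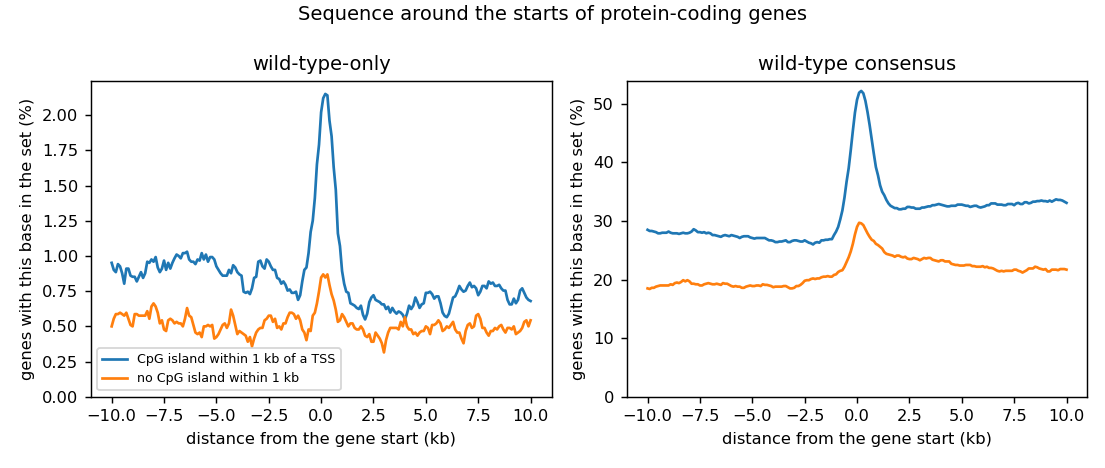
Percent of protein-coding genes whose base at a given distance from the gene start (x axis, kb, negative upstream) lies in wild-type-only sequence (left panel) or in the wild-type consensus (right panel), for genes with and without a CpG island within 1 kb of a TSS. Both curves of both panels are highest close to the gene start, and at the start itself wild-type-only sequence reached 2.02% of genes with an island and the consensus 50.7%.

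Of the 10 gene lists, the TET and TDG pathway had the most genes with a piece at a promoter, 4 of 22 (18.2%), against 776 of 21410 genes (3.62%) overall. A consensus region lay at a promoter in 17 of these 22 genes and in 11065 of all 21410. The lists were chosen with earlier results of these data known, and no test of a list was made. The 4 genes were Tet1, the dioxygenase, Tdg itself, Gadd45a, a stress-induced gene linked to DNA demethylation, and Idh1, whose product makes the cosubstrate of the TET enzymes. In the other lists a promoter piece was found in 2 of 22 germline genes (Hormad1 and Brdt), and in Pax6 among 26 lineage transcription factors, Robo3 among 34 axon guidance genes, Ifit1 among 25 genes of the interferon response, and Lsamp among 28 synaptic adhesion and very long neuronal genes. None was found in 13 genes of DNA methylation and its readers, 24 pluripotency factors, 25 imprinted genes and 23 fibroblast markers, and at the share of 3.62% over all genes a list of this size would hold few or none.

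Tdg, the gene that the siRNA of the TDG KD cultures targets, had 4 pieces of 3800 bp in all over 18.1% of its body (chr10:82092573-82113544, plus strand), and these were all of its consensus sequence. The value over the 4 pieces was -0.421 and -0.251 in TDG KD, -0.16 and -0.0971 in the siRNA control, and 2.67 and 0.739 in wild type. All 4 siRNA values were negative, at the 9.76 percentile or below in each library. In each siRNA library all 4 pieces had the same value, so it describes wider sequence and is not a separate measure of each piece. Tet1 had 11 pieces over 8200 bp, 58.6% of its consensus sequence, with values of -0.49 and -0.185 in TDG KD, -0.132 and -0.0962 in the siRNA control, and 2.88 and 0.539 in wild type. In bham480 and in ear001 all 11 pieces likewise had the same value. One of these pieces, of 900 bp and 62.3% CGI, had 60 CpGs and lay in an intron 6552 bp from the nearest annotated TSS. The 200 bp window with the most CpGs outside exons is shown for each gene, chosen after the values were seen, with CpGs in capitals and the plus strand of mm9 5′ to 3′.
Tdg, in the piece over a TSS, chr10:82093014-82093213: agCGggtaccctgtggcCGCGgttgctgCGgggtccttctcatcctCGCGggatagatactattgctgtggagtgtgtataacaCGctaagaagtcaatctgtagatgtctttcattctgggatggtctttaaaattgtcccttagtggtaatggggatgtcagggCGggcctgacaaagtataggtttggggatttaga
Tet1, in the intronic piece, chr10:62349533-62349732: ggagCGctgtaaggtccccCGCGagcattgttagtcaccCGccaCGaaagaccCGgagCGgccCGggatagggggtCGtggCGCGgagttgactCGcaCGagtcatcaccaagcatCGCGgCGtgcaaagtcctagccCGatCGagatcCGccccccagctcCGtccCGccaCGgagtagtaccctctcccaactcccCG
The Tdg window carries 8 CpGs and the Tet1 window 23.

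The Gadd45a piece was 68.4% CGI with 99 CpGs in 1200 bp, and its value was -0.485 and -0.0194 in TDG KD, -0.069 and -0.0397 in the siRNA control, and 3.83 and 0.341 in wild type. Idh1 had 900 bp of pieces, 18.4% of its consensus sequence. Tet2 had 3700 bp in 2 pieces, all of its consensus sequence, and none within 1 kb of a TSS. Among the pluripotency factors, bodies of Dppa4, Nr5a2 and Tdgf1 had wild-type-only pieces as all of their consensus sequence. The 2 pieces at Tdgf1, a coreceptor of Nodal signaling, stood out by their siRNA values of -0.0691 and 0.184 in TDG KD and 0.127 and 0.158 in the siRNA control, between the 71.1 and 87.8 percentile, against 2.49 and 0.453 in wild type. Esrrb, an orphan nuclear receptor of the pluripotency network, had 200 bp of wild-type-only sequence in 92312 bp of consensus. Among the fibroblast markers only Fn1, the gene of fibronectin, held pieces in its body, 3 of 3200 bp in all. The share of consensus sequence in the bodies that was wild-type-only was 1.09% for the fibroblast markers, against 3.12% over all protein-coding genes. A low share was not particular to this list, with 1.01% for axon guidance genes and 1.43% for lineage transcription factors. Only the TET and TDG pathway (11.7%) and the pluripotency factors (4.33%) stood above the share over all genes.

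A gene body held at least 1 piece in 2954 of the 21410 genes (13.8%). Longer bodies held one more often, 2.79% of 8452 genes under 10 kb and 55.1% of 503 genes over 300 kb. The part of the body itself that was wild-type-only did not rise with length, at 0.701% under 10 kb, 0.692% at 10 to 30 kb, 0.743% at 30 to 100 kb, 0.724% at 100 to 300 kb and 0.369% over 300 kb. The part of the consensus sequence that was wild-type-only was 1.58% in bodies under 10 kb, 1.88% at 10 to 30 kb, 3.03% at 30 to 100 kb, 4.09% at 100 to 300 kb and 4.32% over 300 kb.

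Fgfr2, a receptor of fibroblast growth factors, held the most wild-type-only sequence, 65 pieces over 53500 bp. Its annotated body spans 3009069 bp in the release used (chr7:137305965-140315033) and overlaps neighbouring genes, among them Ctbp2, a transcriptional corepressor with 22 pieces over 24008 bp. Of the consensus in Ctbp2 48.7% was wild-type-only, against 5.85% in Fgfr2. The window of 1 Mb with the most wild-type-only sequence, chr7:140000001-141000000, lies there, with 50 pieces over 45800 bp. The 22 Ctbp2 pieces had values of -0.357 and 0.032 in TDG KD, -0.0657 and -0.00647 in the siRNA control, and 2.94 and 0.578 in wild type. Other genes with much wild-type-only sequence were Tmem132d (24300 bp), the sialyltransferase gene St6galnac3 (21400 bp), Nlrp4c (20900 bp), Wdfy3, an adaptor of selective autophagy (20800 bp), Dock1, an activator of Rac (19600 bp), Tead1, a transcription factor of the Hippo pathway (18700 bp), Dpp6 (17700 bp), Shroom3, a regulator of apical constriction (17200 bp), and Phf17 (17000 bp). Arfip1, Schip1 and Etl4 held 16600, 16600 and 16000 bp.

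Among bodies of at least 20 kb, Nlrp4c, of a gene family known for expression in oocytes, had the largest share, 34.8% in 9 pieces, and 92.1% of its consensus was wild-type-only. For 2 of its pieces at least 50% of the 31-mers occurred 10 or more times in the autosomes. Next were 2410141K09Rik (32.2%), Supt5h, an elongation factor of RNA polymerase II (29.5%), the zinc finger gene Zbtb8a (29%), Phf17 (27.8%), Zfp512 (26.3%), Gsta2, a glutathione S-transferase (25%), C87436 (24.4%), Ppil6 (22.6%) and Zmat3, an RNA-binding protein (21.8%). The 11 pieces of Phf17 had values of -0.36 and -0.132 in TDG KD, -0.141 and -0.0854 in the siRNA control, and 2.69 and 0.513 in wild type, and 86.7% of its consensus was wild-type-only. Over the 23 genes that the rules on gene bodies took, the value ran from -1.24 to -0.194 in bham480, -0.183 to 0.199 in ear003, -0.141 to 0.183 in bham479 and -0.108 to 0.0598 in ear001, against 2.38 to 3.20 in bham359_362 and 0.184 to 0.714 in bham470. The lowest bham480 value belonged to 2410141K09Rik. The other windows of 1 Mb with the most wild-type-only sequence were chr16:22000001-23000000 with 40100 bp around Etv5, Igf2bp2 and Senp2, chr3:153000001-154000000 with 36000 bp around St6galnac3 and Lhx8, chr7:6000001-7000000 with 35854 bp around Nlrp4c and the imprinted genes Peg3 and Zim1, and chr5:102000001-103000000 with 35500 bp around Wdfy3 and Arhgap24.

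The share of wild-type-only sequence varied between chromosomes. On chromosome 8 it was 3400 bp in 8 pieces, 0.0136% of the 25 Mb of consensus, and on chromosome 11 0.97% of 27.9 Mb. It was 10.1% on chromosome 3, 9.29% on chromosome 13, 7.23% on chromosome 18 and 6.32% on chromosome 10, and between 2.97% and 5.00% on the other autosomes. Over whole chromosomes, siRNA percentiles relative to wild type tended to be higher where the share was lower, with exceptions. The difference, siRNA minus wild type, was -2.41 percentage points on chromosome 3, which had the highest share. It was -4.18 on chromosome 2 at a share of 3.72%, and 4.99 on chromosome 14 at 4.3%. The mean percentile of chromosome 8 was 78.6 and 70.7 in TDG KD, 77.0 and 86.5 in the siRNA control, and 51.7 and 55.2 in wild type. On chromosome 13 it was 39.7 and 46.5 in TDG KD, 46.2 and 41.9 in the siRNA control, and 50.3 and 50.1 in wild type. Over the 19 autosomes the share and the difference of the siRNA from the wild-type percentile had a Spearman rho of -0.57, and of -0.40 over the 17 left without chromosomes 8 and 11. This is a description, since the rule uses the same calls, and the part of whole-chromosome levels in the result was not tested. Leaving out chromosome 8 left the size of the set at 11.66 Mb, which its 3400 bp of pieces fixed in advance.

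**Figure D4:**
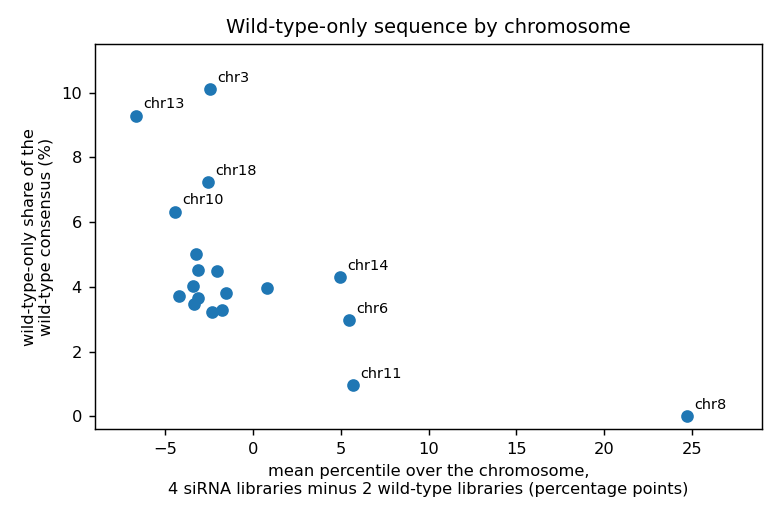
Wild-type-only share of the wild-type consensus of each autosome (y axis, percent) against the mean percentile of the domain value over the whole chromosome, 4 siRNA libraries minus 2 wild-type libraries (x axis, percentage points). Each point is 1 of 19 autosomes, and chromosome 8 stands alone at 24.7 percentage points with a share of 0.0136%.

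Within the pieces, the share of multi-copy sequence was highest in the widest. Of the 31-mers of wild-type-only sequence, 4.59% occurred 10 or more times in the autosomes, against 2.91% in the sequence enriched in all 6 pulldowns, 8.35% in control-only sequence and 10.2% in all covered sequence. Pieces of 200 to 400 bp had a mean share of 1.83%, and the 26 pieces of at least 6 kb had 61.3%. In 19 of those 26 at least 50% of the 31-mers occurred 10 or more times, and the median 31-mer of these had between 35 and 3745.5 copies. Over all widths 60 pieces (0.398%) were of this kind, so most of them were narrower than 6 kb. Only reads placed uniquely were kept by the authors, so values there rest on the parts of a piece that can be placed.

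**Figure D5:**
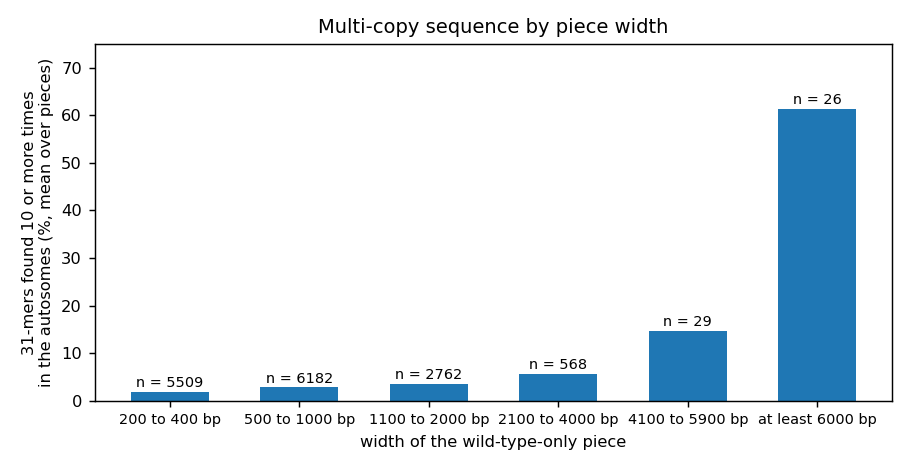
Percent of 31-mers that occur 10 or more times in the autosomes, as the mean over pieces (y axis, bars from 0), by width of the wild-type-only piece (x axis, 6 classes, number of pieces above each bar). The bar is at 1.83% for pieces of 200 to 400 bp and at 61.3% for the 26 pieces of at least 6 kb.

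The widest piece, chr4:101535102-101545101, was intergenic, with 328 CpGs, and 79.5% of its 31-mers occurred 10 or more times. Its value was -0.446 and -0.0566 in TDG KD, -0.0122 and 0.0119 in the siRNA control, and 2.44 and 0.862 in wild type. It was background in all 4 siRNA libraries over its whole length. Of the 10 widest pieces, 8 were of this multi-copy kind. The others were the Cdk6 piece, chr5:3430601-3439900, with 14.7% of 31-mers at 10 or more copies, and the piece in Myh9, the gene of a non-muscle myosin heavy chain, chr15:77659997-77668396, with 1.67% and a median of 1 copy. The Myh9 piece had values of -0.247 and 0.112 in TDG KD, 0.0485 and 0.149 in the siRNA control, and 2.67 and 0.68 in wild type, at a percentile of 72.0 to 77.7 in 3 siRNA libraries and 61.1 in bham479. It was unconfident in bham480 and abutted a domain enriched in a siRNA library. The 10 widest pieces that were background in all 4 siRNA libraries had between 73.4% and 91.3% of such 31-mers, and 1 of them lay in a gene, Lama3, which encodes a laminin chain.

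The few highest values belonged to pieces poor in CpG, which did not hold further down the order. Among pieces of at least 1000 bp, the 5 with the highest percentile in the lower of the wild-type libraries reached at least the 99.9 percentile in both and held 2 to 8 CpGs each. The 100 pieces of highest value by this measure had a median of 12.2 CpGs per kb, against 11 over all 4011 pieces of at least 1000 bp, and across all pieces CpG density had a Spearman rho of 0.044 with the value of bham359_362 and -0.0053 with that of bham470. The first, chr7:71235094-71236093, had values of -0.288 and -0.249 in TDG KD, -0.329 and -0.203 in the siRNA control, and 11.3 and 2.18 in wild type. The second, chr3:156095937-156097236, had -0.829 and -0.164 in TDG KD, -0.0504 and -0.0424 in the siRNA control, and 8.22 and 2.96 in wild type. The third lay in an intron of Cnksr3, a scaffold of sodium transport signaling, the next in the mitochondrial carrier gene Slc25a12, and the last in Zfp607. How far parts of the sequence recur within a piece was measured as the share of 12-mers found more than once in the central 1000 bp. This share was 16.2%, 44.0%, 71.5%, 45.0% and 4.15% in the 5 pieces, in order, against a median of 0.404% over all 4011 wild-type-only pieces of at least 1000 bp and 0.202% over a sample of 4803 regions enriched in all 6 pulldowns. The 4.15% of the Zfp607 piece was close to the mean of 3.51% over the 4011 pieces. A share of 25% or more was found in 7 of the 20 pieces of highest value, in 11 of the 100 highest, whose median was 1.01%, and in 117 of all 4011 (2.92%). No such share is given for the highest values among regions enriched in all 6. A high share at the highest values therefore cannot be called particular to wild-type-only pieces. This measure was chosen after the pieces had been seen. A 200 bp window of 3 of them shows the repeated units, with the most frequent 12-mer of the piece in capitals, from the plus strand of mm9, 5′ to 3′.
First piece, chr7:71235369-71235568: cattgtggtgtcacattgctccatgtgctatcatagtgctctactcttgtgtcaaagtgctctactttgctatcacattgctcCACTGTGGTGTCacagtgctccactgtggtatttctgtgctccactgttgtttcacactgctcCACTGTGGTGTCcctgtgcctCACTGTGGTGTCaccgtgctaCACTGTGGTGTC
Second piece, chr3:156096453-156096652: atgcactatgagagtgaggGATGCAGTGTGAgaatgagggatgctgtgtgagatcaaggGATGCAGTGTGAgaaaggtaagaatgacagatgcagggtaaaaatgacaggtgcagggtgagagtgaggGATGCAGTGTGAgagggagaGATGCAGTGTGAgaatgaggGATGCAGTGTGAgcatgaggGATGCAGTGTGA
Piece in Cnksr3, chr10:3197006-3197205: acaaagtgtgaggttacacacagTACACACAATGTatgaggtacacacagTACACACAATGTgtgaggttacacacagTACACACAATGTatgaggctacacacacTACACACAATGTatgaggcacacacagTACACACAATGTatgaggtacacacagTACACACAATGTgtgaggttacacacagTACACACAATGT
The marked 12-mer occurred 6 times in the first piece, 18 times in the second and 27 times in the Cnksr3 piece.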

How the data were processed

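5fC was mapped by chemical pulldown in 6 libraries and compared with 1 genomic input library. The authors aligned single-end reads to mm9 with BWA (0.6.1 in the submitters' processing notes), kept reads of mapping quality 15 or greater and ran rseg on each library with the input as control and bins of 100 bp. The deposited domain value is a score, the mean pulldown-minus-input reads per bin without depth correction. Another deposited score, which grows with domain width, was not used. Depth came from the study's supplement, at 20.4 to 45.9 M reads per pulldown and 26.5 M for the input. The deposited files hold no read counts per region, so no counting interval is given.

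Sets were built from the enriched domains by base pair on the autosomes with Python 3.11.15, NumPy 2.4.6, pandas 2.3.3 and numba 0.67.0, and drawn with Matplotlib 3.10.9. Values were weighted by length. Genes came from GENCODE release M1, and CGIs were called from the mm9 sequence (at least 200 bp, GC over 50%, CpG ratio over 0.6) without masking repeats. Covered sequence lies in a domain of all 6 libraries. Windows of sequence were read from the NCBIM37 assembly, which is mm9. The exact permutation test planned for TDG KD against siRNA control is not reported, because the calls of these libraries chose the pieces, so no test is given. The code was checked on simulated domains, where the same rule applied base by base gave the same bases (100%). That is a check of the code alone and measures no recovery of wild-type-only sequence.

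Members, lists and tests were chosen with earlier results of these data known. The genes and regions named are the 10 widest pieces, the 10 widest that were background in all 4 siRNA libraries, the 5 of highest value among pieces of at least 1000 bp, the 15 genes with most wild-type-only sequence and the 10 with the largest share of a body of at least 20 kb, the 10 widest CGIs at least 50% wild-type-only, the 5 richest windows of 1 Mb, and list genes with a promoter piece; list genes with pieces in the body alone and the windows of Tdg, Tet1 and the repeated units were picked after their values were seen. Not every gene that the rule took is reported here. Alternatives changed the minimum width, the state required of the siRNA libraries, the domains kept, the libraries removed or left out, the annotation and the scale.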

Additional observations from a re-analysis of the deposited data

How the results depend on the processing

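The size of the set depended on how many libraries had to exclude a base and on the wild-type replicate. Under a minimum width of 1000 bp it was 6.31 Mb in 4011 pieces with 303 genes at a TSS, and under one of 500 bp 9567 pieces. With background required in all 4 siRNA libraries it was 7.46 Mb in 9927 pieces. With only the BHAM siRNA libraries removed it was 41.2 Mb in 41284 pieces with 2655 genes at a TSS, a fold of 4.71 at CGIs and 2.34 at exons, and with only the siRNA control libraries removed 25.1 Mb in 26779 pieces with 1844 genes, 5.98 and 2.39. In these 2 settings fewer libraries exclude a base, which enlarges the set by construction. Leaving out any 1 library, as given below, also drops a condition of the rule, so there too the Mb could only grow. Without the 25% of enriched domains of lowest value the fold at exons was 2.63, and the cause was not tested. The count of genes was 424 with the TSS base itself in a piece and 1669 with 5 kb on either side. Leaving out 1 library at a time gave 12.2 to 92.4 Mb, 13352 to 144170 pieces, 798 to 5015 genes, folds of 1.22 to 5.74 at CGIs and 1.22 to 2.36 at exons, and a GC content of 44.4% to 48.7%. The Mb were 12.2 without TDG_KD replicate 1 (bham480), 23.4 without TDG_KD replicate 2 (ear003), 18.8 without siRNA_control replicate 1 (bham479), 16.9 without siRNA_control replicate 2 (ear001), 41.6 without wild_type replicate 1 (bham359_362) and 92.4 without wild_type replicate 2 (bham470). Without wild_type replicate 2 the fold at exons was 1.51, a move larger than the spread between the wild-type replicates (SD 0.208). GC content and the folds otherwise moved by less than the spread between the wild-type replicates.

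The difference of TDG KD from siRNA control had no stable sign. It was -0.172 with the deposited value, which does not take the library mean away, -0.0446 within the prefix EAR and -0.0185 in the pieces that were background in all 4 siRNA libraries, and leaving out 1 siRNA library gave -0.0312 to 0.0468. No paired analysis was possible because the labels give no replicate numbers that pair the libraries, and the differences within the prefixes BHAM and EAR are given instead.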
